A study of Mus musculus with 2 samples.

Results

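The 39 Hox genes of the mouse genome lie in 4 clusters, A to D, and were described here in the embryonic neural tube, which forms the brain and spinal cord. The members were all genes whose symbol is Hox followed by the cluster letter and a paralogue number, 39 of 43346 genes in the deposited tables. Of these, 11 were in cluster A (chr6:52155590-52260880), 10 in cluster B (chr11:96194316-96368256), 9 in cluster C (chr15:102921103-103036852) and 9 in cluster D (chr2:74668310-74765142, all GRCm38). The data were total RNA-seq of B6NCrl embryos at embryonic day 14.5, with no treatment and no mutation named, in 1 group of 2 libraries. By the labels, replicate 2 came from a pup of pregnant female 2 and replicate 1 from a pup of pregnant female 1, each with 10 ng of RNA plus spike-in standards, while the sex was given as male and female pooled. Whether each library held 1 embryo or several is therefore not settled by the labels. With a single group there is no contrast between conditions, so differences between replicate 2 and replicate 1 describe these 2 libraries and carry no p-value.

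Hox genes encode transcription factors that bind DNA through the homeodomain, and they give cells along the hindbrain and spinal cord their position from head to tail. Within a cluster the genes all point the same way, and the order along the chromosome follows the order of the body: genes at the 3′ end, with low paralogue numbers, are switched on early and up to the hindbrain, and genes at the 5′ end, with high numbers, late and near the tail. Genes with the same number in different clusters are paralogues that arose when an ancestral cluster was duplicated. In spinal cord the middle numbers are known for the choice of motor neuron type at limb and trunk levels, and forebrain and midbrain express almost none.

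The homeobox, the 180 bases that code for the homeodomain, is what all members share, and the sequences of paralogue groups 10 and 8 are shown because all 3 members of group 10 were lower in replicate 2 and Hoxc8 alone in group 8 was called higher. Each was cut from the coding sequence in the annotation (GENCODE M21, GRCm38), runs 5′ to 3′ along the gene's own strand, and has in capitals the 18 bases (positions 142 to 159) that code for the conserved core of the third helix, which reads the DNA. Hoxa10 lies on the minus strand of chromosome 6, Hoxc10 and Hoxc8 on the plus strand of chromosome 15, Hoxd10 and Hoxd8 on the plus strand of chromosome 2, and Hoxb8 on the plus strand of chromosome 11.
Hoxa10 homeobox: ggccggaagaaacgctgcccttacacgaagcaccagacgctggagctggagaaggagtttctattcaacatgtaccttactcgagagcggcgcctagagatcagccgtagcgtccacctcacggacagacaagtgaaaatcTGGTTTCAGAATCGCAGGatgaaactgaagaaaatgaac
Hoxc10 homeobox: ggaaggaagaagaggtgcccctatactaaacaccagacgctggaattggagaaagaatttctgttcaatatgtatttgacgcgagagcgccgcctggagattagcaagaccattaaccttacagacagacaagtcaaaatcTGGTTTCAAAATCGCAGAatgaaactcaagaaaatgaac
Hoxd10 homeobox: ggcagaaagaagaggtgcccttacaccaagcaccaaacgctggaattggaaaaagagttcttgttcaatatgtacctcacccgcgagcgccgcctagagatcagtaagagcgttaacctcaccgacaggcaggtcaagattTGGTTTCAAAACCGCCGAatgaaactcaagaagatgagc
Hoxb8 homeobox: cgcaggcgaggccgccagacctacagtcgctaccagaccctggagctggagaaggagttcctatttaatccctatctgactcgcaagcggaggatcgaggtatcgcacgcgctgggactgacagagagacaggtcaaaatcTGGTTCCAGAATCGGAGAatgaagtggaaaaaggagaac
Hoxc8 homeobox: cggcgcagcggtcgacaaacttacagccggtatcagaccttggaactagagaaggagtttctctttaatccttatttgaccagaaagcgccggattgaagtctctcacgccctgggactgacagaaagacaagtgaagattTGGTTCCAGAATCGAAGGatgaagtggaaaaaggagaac
Hoxd8 homeobox: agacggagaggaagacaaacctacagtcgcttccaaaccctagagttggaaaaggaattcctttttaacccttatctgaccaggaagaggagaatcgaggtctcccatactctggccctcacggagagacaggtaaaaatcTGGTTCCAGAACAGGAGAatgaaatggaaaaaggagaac
Among these, Hoxc10 and Hoxd10 were identical at 82.8% of bases, with 31 that differed, and Hoxb8 and Hoxc8 at 80.0%, with 36. Across groups the identity was lower, for example 60.0% between Hoxc8 and Hoxc10, which lie in the same cluster. Over the 42 pairs of paralogues the identity ranged between 67.2% and 93.9% with a median of 80.6%, against a median of 61.1% over all 741 pairs of Hox genes. The most alike pair was Hoxa3 and Hoxb3, with 11 differing bases of the 180. Reads from such stretches can be assigned to the wrong paralogue, and the size of that effect was not tested.

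Replicate 2 held 26025302 expected counts and replicate 1 held 33360108, of which 25428728 in replicate 2 and 32255343 in replicate 1 fell on genes. The 9 neural tube markers, such as the neuronal tubulin gene Tubb3 and the progenitor gene Nes, were all above 1 TPM (a transcript level corrected for length and depth) and summed to 4435 TPM in replicate 2 and 4242 TPM in replicate 1. Fabp7 and Tubb3 made up most of both sums. In scaled counts 1 of the 9 (Nes, 13.23 TPM in replicate 2 and 8.43 TPM in replicate 1) was at least 1.5-fold higher in replicate 2. The number lower was 0. Of all genes tested, 10.7% were higher and 8.53% lower. Of 11 forebrain and midbrain markers, 1 (En1) reached 1 TPM, and the list summed to 2.32 TPM in replicate 2 and 2.78 TPM in replicate 1, so the labelled tissue showed little sign of the front of the brain. Lists for neighbouring tissue differed between the libraries: meninges and fibroblast genes summed to 1044 TPM in replicate 2 and 48.5 TPM in replicate 1, and sensory ganglion genes to 436 TPM in replicate 2 and 290 TPM in replicate 1. The muscle list summed to 20.8 TPM in replicate 2 and 39.9 TPM in replicate 1, and the motor neuron list to 147 TPM in replicate 2 and 74.3 TPM in replicate 1. In the motor neuron list Isl1, which is also a sensory ganglion marker, had 70.15 TPM in replicate 2 and 23.63 TPM in replicate 1, and Isl2 had 26.16 TPM in replicate 2 and 3.32 TPM in replicate 1, while the ratios of the other 5 lay between 0.796 and 1.09. Limb bud and skin genes summed to 5.81 TPM in replicate 2 and 1.15 TPM in replicate 1, of which Prrx1, a gene of limb mesenchyme, made up 5.14 TPM in replicate 2 and 0.61 TPM in replicate 1, and the other 5 were at or below 0.33 TPM in both. In such bulk samples fewer cells of a type and less RNA per cell cannot be told apart.

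The middle of every cluster was expressed, and the 5′ end was near or at 0. Clusters A, B and D began low with group 1, while cluster C begins with Hoxc4. Levels next to group 1 varied, with Hoxb2 at a mean of 37.73 TPM. Of the 39 genes, 27 were at or above 1 TPM in both libraries, namely every member of paralogue groups 2 to 10, while among all protein-coding genes the share was 60.8%. All 9 members of groups 11 to 13 had at most 5 counts in either library, and the 3 members of group 1 missed the threshold in at least 1 library. The Hox genes together summed to 1110.9 TPM in replicate 2 and 1127.1 TPM in replicate 1, or 0.118% of the TPM of all genes in replicate 2 and 0.122% in replicate 1.

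**Figure D1:**
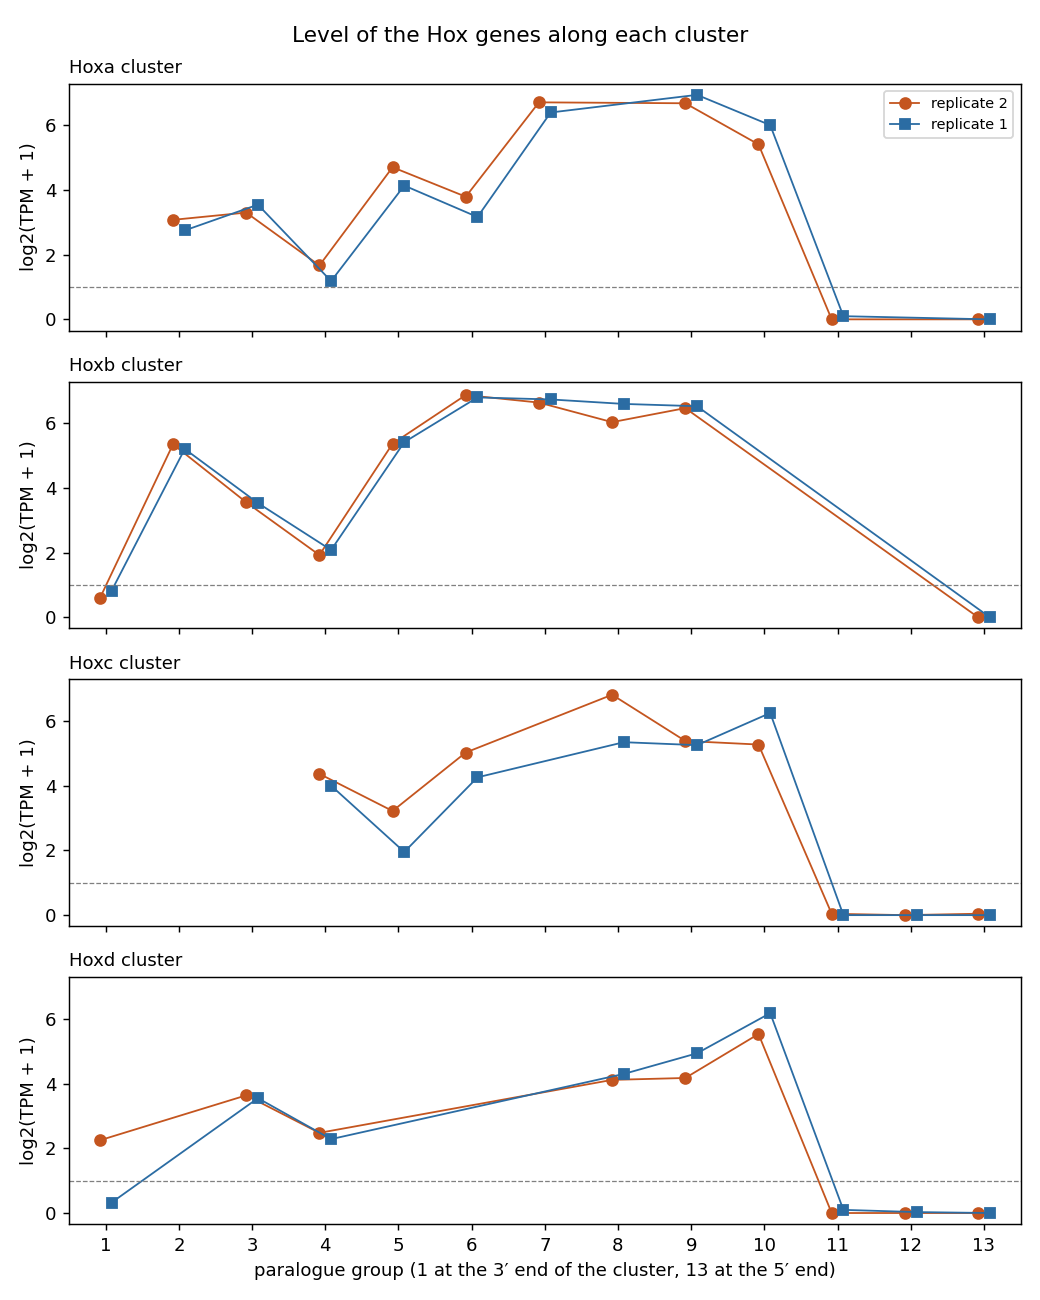
Level of the Hox genes along the clusters as log2(TPM + 1), plotted against its paralogue group for each cluster, with circles for replicate 2, squares for replicate 1 and a dashed line at 1 TPM. In clusters A, C and D levels drop to the floor between groups 10 and 11, in cluster B, which has no member of groups 10 to 12, after group 9, and Hoxa4, Hoxb4 and Hoxd4 form a dip.

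At the 3′ end, group 1 was near or under the threshold, with 1 exception in 1 library. Hoxb1, the marker gene of the fourth hindbrain segment, had 0.50 TPM in replicate 2 and 0.76 TPM in replicate 1. Hoxd1 (chr2:74762980-74765142) stood out, with 3.75 TPM from 99 counts in replicate 2 against 0.25 TPM from 9 counts in replicate 1, so that it passed 1 TPM in replicate 2 alone.

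The genes of groups 2 and 3 are known for the identity of hindbrain segments and of the neural crest that leaves them. Hoxa2, which specifies the second pharyngeal arch, had 7.43 TPM in replicate 2 and 5.72 TPM in replicate 1. Its paralogue Hoxb2 was higher, at 39.67 TPM in replicate 2 and 35.79 TPM in replicate 1. The 3 genes of group 3 were close to each other. Hoxa3, which in mouse is needed for the thymus and parathyroid, had 8.85 TPM in replicate 2 and 10.67 TPM in replicate 1. Hoxb3 had 10.74 TPM in replicate 2 and 10.55 TPM in replicate 1, and Hoxd3 11.44 TPM in replicate 2 and 10.71 TPM in replicate 1, so that Hoxb3 overlapped both of its paralogues in range.

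Group 4 held the 3 lowest mean levels between groups 2 and 10. Hoxa4 had 2.17 TPM in replicate 2 and 1.27 TPM in replicate 1, the lowest of the 27 genes in both libraries. Hoxb4 had 2.79 TPM in replicate 2 and 3.22 TPM in replicate 1. Hoxd4 had 4.57 TPM in replicate 2 and 3.87 TPM in replicate 1. In cluster C, which begins with group 4, the level was higher: Hoxc4 had 19.63 TPM in replicate 2 and 15.02 TPM in replicate 1, above the other 3 in each library.

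Groups 5 and 6 act in mouse at neck and forelimb levels of the spinal cord. Summed over its members, each was higher than group 4, though Hoxc5 lay below Hoxc4 in both libraries. Hoxa5, known in mouse for phrenic motor neurons, had 25.02 TPM in replicate 2 and 16.57 TPM in replicate 1. Hoxb5 differed little between the libraries, with 40.19 TPM in replicate 2 and 41.58 TPM in replicate 1. Hoxc5, which acts with Hoxa5 on those neurons, was the low member, with 8.31 TPM in replicate 2 and 2.87 TPM in replicate 1. In group 6, cluster B led. Hoxb6 had 115.9 TPM in replicate 2 and 110.0 TPM in replicate 1, the highest mean of all 39 genes. Hoxc6, known for limb-innervating motor neurons at forelimb level, had 31.59 TPM in replicate 2 and 18.15 TPM in replicate 1. Hoxa6 had 12.84 TPM in replicate 2 and 7.96 TPM in replicate 1, so that the 3 members kept the order B, C, A in both libraries.

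Groups 7 to 9 held most of the highest levels. Hoxa7 had 103.5 TPM in replicate 2 and 83.09 TPM in replicate 1, and its only paralogue Hoxb7 had 98.39 TPM in replicate 2 and 105.3 TPM in replicate 1. In group 8, Hoxb8, which in mouse is also known from a lineage of microglia, had 64.36 TPM in replicate 2 and 95.56 TPM in replicate 1. Hoxc8 (chr15:102990607-102994111), which sets motor pools of the forelimb, had 111.3 TPM in replicate 2 against 39.65 TPM in replicate 1, and its rank among the 27 genes was 2 in replicate 2 and 11 in replicate 1. Hoxd8 was low in both, at 16.33 TPM in replicate 2 and 18.69 TPM in replicate 1. All 4 clusters have a group 9 gene. Hoxa9 had 101.5 TPM in replicate 2 and 121.7 TPM in replicate 1, the highest value of any Hox gene in that library. Hoxb9 had 87.27 TPM in replicate 2 and 90.94 TPM in replicate 1. Hoxc9, known in mouse for setting the thoracic motor neuron types, had 40.73 TPM in replicate 2 and 37.16 TPM in replicate 1. Hoxd9 had 17.05 TPM in replicate 2 and 29.63 TPM in replicate 1, so that the order A, B, C, D held in both.

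Group 10, which in mouse marks the lumbar spinal cord and directs hindlimb motor neurons, was the last one expressed, and its 3 members lay close together. Hoxa10 (chr6:52231197-52240854) had 41.46 TPM in replicate 2 and 63.14 TPM in replicate 1. Hoxc10 (chr15:102966796-102971893) had 37.66 TPM in replicate 2 and 75.00 TPM in replicate 1. Hoxd10 (chr2:74691924-74695105) had 45.29 TPM in replicate 2 and 71.42 TPM in replicate 1. All 3 were lower in replicate 2, and within each library their levels spanned less than the gap between the libraries. Hoxd10 was the highest gene of cluster D in both.

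Beyond group 10 the clusters were near or at the counting floor, the TPM that 3 counts would give. In replicate 2, Hoxc11 and Hoxc13 had 1 count each and the other 7 genes of groups 11 to 13 had 0. Replicate 1 had 3 counts for Hoxa11, 5 for Hoxd11 and 1 for Hoxd12, and 0 for the rest. Hoxa13, Hoxb13, Hoxc12 and Hoxd13 had no count in either library. Hoxb13 acts on the length of the tail in mouse, and its floor was 0.0951 TPM in replicate 2 and 0.0703 TPM in replicate 1. With no count, a level below this floor was not excluded. Group 13 genes also pattern digits and the genital tubercle.

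Set out by mean level, the 27 genes formed few steps larger than the spread between the libraries. Ranges of neighbours in the order did not overlap at 5 of the 26 places: below Hoxb2 (37.7 ± 2.74 TPM, SD, n = 2), below Hoxc4 (17.3 ± 3.26), below Hoxa3 (9.76 ± 1.29), below Hoxd4 (4.22 ± 0.50) and below Hoxb4 (3.01 ± 0.30). The top 13 genes, with means between Hoxb6 (112.9 ± 4.14) and Hoxb2, thus formed an unbroken run in which each neighbour overlapped the next.

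Going along the chromosome, neighbouring genes often differed more than the libraries did. Of 35 steps from one gene to its 5′ neighbour, 27 had the same sign in both libraries on the log2(TPM + 1) scale, 13 up and 14 down, and 20 exceeded 1 in both. The step up from Hoxa6 to Hoxa7 was 2.92 in replicate 2 and 3.23 in replicate 1. The step from Hoxb4 to Hoxb5 was 3.44 in replicate 2 and 3.34 in replicate 1, and that from Hoxa4 to Hoxa5 was 3.04 in replicate 2 and 2.95 in replicate 1. A rise after group 4 was thus shared by clusters A and B. Cluster C went the other way, with a step from Hoxc4 to Hoxc5 of -1.15 in replicate 2 and -2.05 in replicate 1. The largest falls were those to the silent 5′ end. Hoxb9 to Hoxb13 changed by -6.46 in replicate 2 and -6.52 in replicate 1, and Hoxd10 to Hoxd11 by -5.53 in replicate 2 and -6.08 in replicate 1. In cluster C the step from Hoxc8 to Hoxc9 was -1.43 in replicate 2 but -0.09 in replicate 1, and that from Hoxc9 to Hoxc10 was -0.11 in replicate 2 and 0.99 in replicate 1, so the peak of the cluster was Hoxc8 in replicate 2 and Hoxc10 in replicate 1.

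Cluster B carried the largest share of the Hox TPM. It summed to 459.8 TPM in replicate 2 and 493.7 TPM in replicate 1 (mean 476.7 ± 24.0, SD, n = 2), which was 41.4% of the Hox total in replicate 2 and 43.8% in replicate 1. Cluster A summed to 303.4 TPM in replicate 2 and 310.9 TPM in replicate 1, the smallest spread of the 4. Cluster C summed to 249.3 TPM in replicate 2 and 187.9 TPM in replicate 1, and cluster D to 98.43 TPM in replicate 2 and 134.7 TPM in replicate 1. The order B, A, C, D held in both libraries with no overlap. By paralogue group, groups 6 to 8 took 49.9% of the Hox total in replicate 2 and 42.4% in replicate 1, and groups 9 and 10 took 33.4% in replicate 2 and 43.4% in replicate 1.

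**Figure D2:**
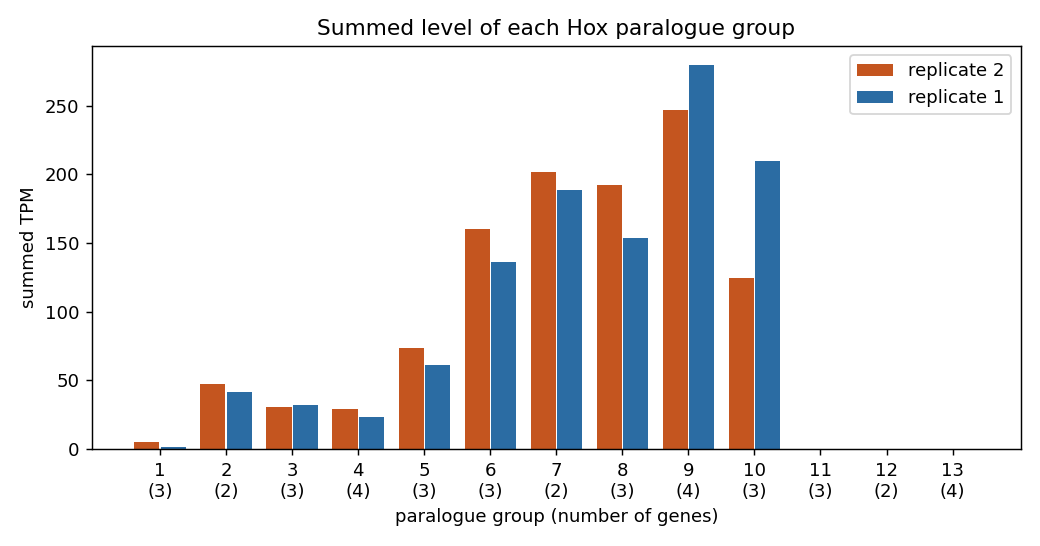
Summed TPM of the members of each paralogue group, with bars from 0 for replicate 2 on the left and replicate 1 on the right, and the number of genes in brackets. Group 10 sums to 124.4 TPM in replicate 2 and 209.6 TPM in replicate 1, and group 8 to 192.0 TPM in replicate 2 and 153.9 TPM in replicate 1.

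The libraries differed along the clusters in opposite directions: group 10 genes were lower in replicate 2, and several genes of groups 4 to 8, with Hoxd1, were higher. Ratios were taken on counts scaled with TMM, so that the median gene sits near 1, and carry a 95% counting interval. With the spike-ins as the scale every ratio is 1.46 times higher (a shift of 0.55 on the log2 scale), so ratios are relative to the median gene. A gene was called at 1.5-fold with a mean count of at least 10, which 30 Hox genes had. Of these, 6 were higher in replicate 2, beside 10.7% of all 17623 genes tested, and 4 were lower, beside 8.53%. The remaining 20 were within 1.5-fold. The higher ones are 20.0% and the lower ones 13.3% of the tested Hox genes, and no test against the background was made. The median log2 ratio was 0.01 for the Hox genes and -0.01 for all genes. With spike-in scaling 13 Hox genes were higher and 0 lower, beside 44.31% of all genes higher and 2.26% lower.

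**Figure D3:**
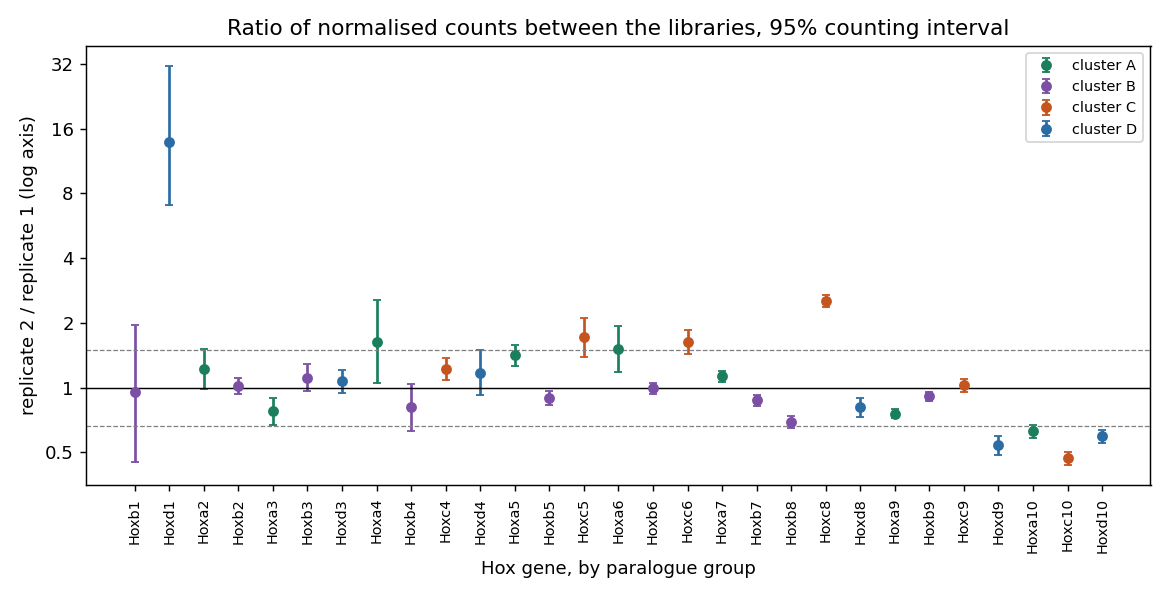
Ratio of TMM-scaled counts, replicate 2 over replicate 1, on a log axis for Hox genes that averaged 10 or more counts, in the order of paralogue groups, with 95% counting intervals and dashed lines at 1.5-fold. Hoxd1 and Hoxc8 lie highest, at 13.9 and 2.54, and the 3 genes of group 10 and Hoxd9 lie below the lower line.

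Among the genes lower in replicate 2, Hoxc10 had 1020 counts in replicate 2 and 2751 in replicate 1, a ratio of 0.470 (0.437 to 0.505). Hoxd9 had a ratio of 0.538 (0.485 to 0.597), Hoxd10 of 0.593 (0.553 to 0.636) and Hoxa10 of 0.628 (0.585 to 0.673). With spike-in scaling these 4 lay between 0.687 for Hoxc10 and 0.918 for Hoxa10, and no other tested Hox gene was below 1. That is no separate support: the spike-in factor of 1.46 is smaller than the 1.5-fold cut. A gene called lower therefore had to stay below 1. The interval of Hoxa10 reached inside 1.5-fold, so it lay near the threshold. All 3 members of group 10 were called, in 3 different clusters, and their summed counts gave 0.560 (0.537 to 0.583). The sum of group 9 gave 0.831 (0.807 to 0.855), which turned to 1.21 with the spike-in scale. Cluster B has no group 10 gene, and 0 of its 9 tested members were called, a count too small to set apart from the shares over all genes given above. Its lowest ratio was that of Hoxb8, 0.692 (0.651 to 0.735), which was 1.01 by spike-ins.

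Of the 6 genes higher in replicate 2, 3 lie in cluster C. Hoxc8 had 3067 counts in replicate 2 and 1532 in replicate 1, a ratio of 2.54 (2.38 to 2.70), with its interval clear of 1.5. Hoxc5 had a ratio of 1.71 (1.39 to 2.11) and Hoxc6 of 1.63 (1.43 to 1.85), and in cluster A Hoxa4 had 1.63 (1.05 to 2.56) and Hoxa6 1.51 (1.18 to 1.93). For these 4 the interval reached below 1.5, so they lay near the threshold. Within group 8 the paralogues went apart, since Hoxd8 had 0.811 (0.732 to 0.899), or 1.19 by spike-ins, and Hoxb8 was below 1 on the TMM scale as given above. Hoxc5 had a ratio of 2.90 in TPM, larger than its ratio in counts, and its deposited effective length was 1788 bases in replicate 2 and 2824 bases in replicate 1. That difference in length came with a short non-coding transcript, Hoxc5-202, assigned 28.8 counts in replicate 2 and 0 in replicate 1.

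Hoxd1 showed the largest ratio, 13.9 (7.05 to 31.4). In mouse this gene is known from pain-sensing neurons of the dorsal root ganglia, which lie beside the neural tube. Of the 10 sensory ganglion markers, 10 reached 1 TPM in replicate 2 and 3 in replicate 1, with none at 0. Of the same 10, 8 were called higher in replicate 2, beside 10.7% of all genes tested. Avil, a gene of sensory neurons, had 22.11 TPM in replicate 2 and 0.12 TPM in replicate 1, and the sodium channel gene Scn10a had 7.47 TPM in replicate 2 and 0.02 TPM in replicate 1. Other members did not follow: the peptide genes Tac1 and Calca had 199.5 and 16.15 TPM in replicate 2, against 241.0 and 22.45 TPM in replicate 1. All 8 meninges and fibroblast markers were also called higher, beside the same 10.7% of all genes. Among them Col3a1 had 419.2 TPM in replicate 2 and 9.70 TPM in replicate 1. The part of such cells in the levels of Hoxd1 or of any other Hox gene was not tested.

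The genes for the protein partners of Hox factors were all expressed. PBX, MEIS and PKNOX proteins bind DNA together with Hox proteins and sharpen the sites they choose. All 9 genes of that list were above 1 TPM in both libraries and 0 of 9 were called, beside the 10.7% of all genes higher and 8.53% lower, so that with 9 genes the 0 is no result about the partners. Their ratios lay between 0.795 for Pbx4 and 1.21 for Pknox2. Meis1 led with 153.3 TPM in replicate 2 and 136.4 TPM in replicate 1, and Pbx3 followed with 128.4 TPM in replicate 2 and 139.3 TPM in replicate 1. Lower in the list, Meis3, Meis2, Pbx4, Pknox1 and Pknox2 lay between 28.81 and 99.40 TPM in both libraries. Pbx2 was lowest, at 6.73 TPM in replicate 2 and 6.04 TPM in replicate 1.

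Of 8 genes that switch Hox genes on or limit them, 4 were above 1 TPM in both libraries. Kmt2a, the histone methyltransferase that maintains Hox transcription, had 12.08 TPM in replicate 2 and 15.49 TPM in replicate 1. Gdf11, a signal that moves the domains of posterior Hox genes, had 7.03 TPM in replicate 2 and 6.52 TPM in replicate 1. Gbx2, known from the border of midbrain and hindbrain, was the highest of the 8, at 21.14 TPM in replicate 2 and 24.80 TPM in replicate 1. Egr2, which activates Hoxa2 and Hoxb2 in the hindbrain, was at 0.84 TPM in replicate 2 and 0.45 TPM in replicate 1. Its counts, 36 in replicate 2 and 4 in replicate 1, gave a larger ratio of 11.4 (4.09 to 44.1), and it was 1 called gene of the 5 tested, beside the 10.7% of all genes called higher. The Cdx genes, which start the central Hox genes in the early embryo, were silent, with Cdx2 and Cdx4 at 0 in both libraries and Cdx1 at 0.04 TPM in replicate 2 and 0 in replicate 1.

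Many Hox genes made RNAs that the annotation does not give a whole homeobox. The tables held 87 transcripts of the 39 genes, of which 51 carried a whole homeobox, and 70 had reads. Of the 36 without one, 24 were not annotated as protein-coding, 6 were coding but incomplete and 6 were complete. Transcripts with a whole homeobox took 74.1% of the Hox TPM in replicate 2 and 72.4% in replicate 1. By counts, a measure added after the data were seen that is not raised by short transcripts, it was 79.6% in replicate 2 and 78.4% in replicate 1. These shares rest on how the authors' quantification split reads among overlapping transcripts. Of the 27 expressed genes, 19 had more than 1 transcript, and the leading one was the same in both libraries in 19 of 19, beside 88.8% of 10043 such genes in all.

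**Figure D4:**
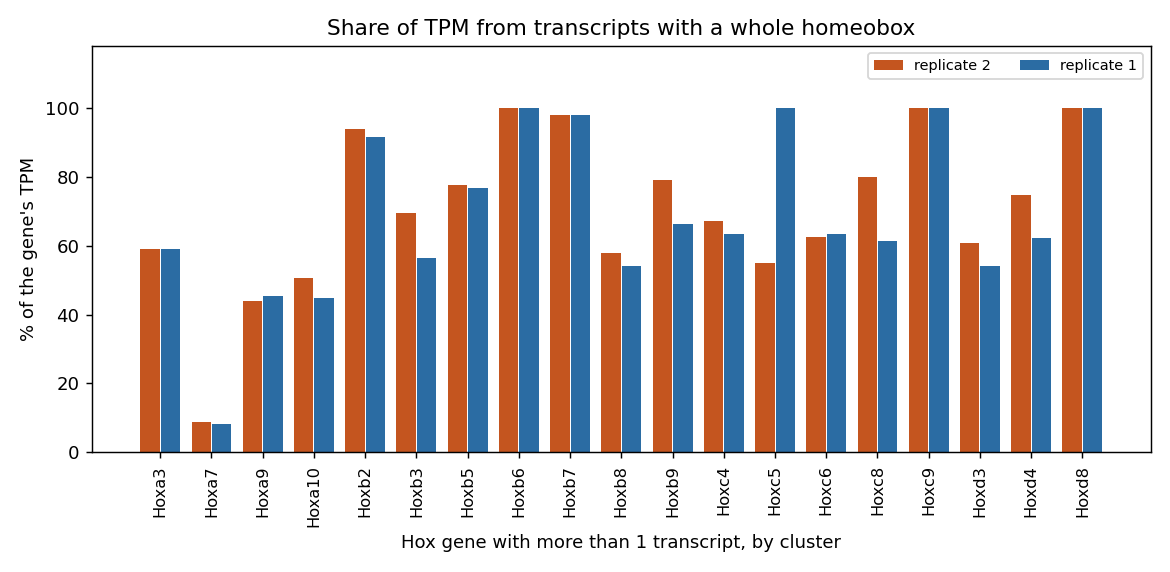
Percent of each gene's TPM that lies in transcripts with a whole homeobox, with bars from 0 for replicate 2 on the left and replicate 1 on the right, for the 19 expressed Hox genes with more than 1 transcript. Hoxa7 is lowest, at 8.89% in replicate 2 and 8.15% in replicate 1, and Hoxb6, Hoxc9 and Hoxd8 are at 100% in both.

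In 2 genes the leading transcript by TPM lacked the homeobox. For Hoxa7 it was Hoxa7-205, annotated as a target of nonsense-mediated decay, with 62.08 TPM in replicate 2 and 53.79 TPM in replicate 1, or 60.0% of the gene in replicate 2 and 64.7% in replicate 1. Its full coding transcript Hoxa7-201 had 9.20 TPM in replicate 2 and 6.77 TPM in replicate 1. So the high gene level of Hoxa7 came mostly from other RNAs. For Hoxa10 the non-coding Hoxa10-203 took 49.3% in replicate 2 and 55.3% in replicate 1, ahead of the coding Hoxa10-202 with 40.0% in replicate 2 and 34.9% in replicate 1. By counts the homeobox transcripts of Hoxa10 took more, 58.7% in replicate 2 and 52.7% in replicate 1, and in replicate 2 Hoxa10-202 led with 613 counts against 493 for Hoxa10-203. In Hoxa9 the coding Hoxa9-201 led with 44.0% of TPM in replicate 2 and 45.4% in replicate 1, yet with 76.7% of the counts in replicate 2 and 76.9% in replicate 1, since Hoxa9-203 and Hoxa9-202 are short. Hoxb8-201 took 57.8% in replicate 2 and 48.8% in replicate 1, and the rest was mostly Hoxb8-202, whose annotated coding sequence is incomplete.

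Transcripts that keep an intron took over 10% of TPM in both libraries in 4 genes. Hoxa3 had 39.6% in replicate 2 and 39.3% in replicate 1, beside its leading Hoxa3-201 with 59.0% in replicate 2 and 59.1% in replicate 1. Hoxd3 had 39.2% in replicate 2 and 38.2% in replicate 1, beside Hoxd3-203 with 57.5% in replicate 2 and 54.0% in replicate 1. Hoxb5 had 22.3% in replicate 2 and 23.4% in replicate 1, beside Hoxb5-201 with 77.7% in replicate 2 and 76.6% in replicate 1. In these 3 the share was nearly equal in the 2 libraries, and in Hoxc8 it was not. The spliced Hoxc8-201 had 89.08 TPM in replicate 2 and 24.28 TPM in replicate 1, while the intron-keeping Hoxc8-202 had 22.27 TPM in replicate 2 and 15.37 TPM in replicate 1, so that its share was 20.0% in replicate 2 and 38.8% in replicate 1. The difference in Hoxc8 thus lay mainly in the spliced RNA, with a TPM ratio of replicate 2 to replicate 1 of 3.67. The ratio of Hoxc8-202 was 1.45, so it was higher in replicate 2 as well.

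The other genes with a leading transcript under 90% in either library are given here. Hoxb9-201 had 79.1% in replicate 2 and 66.4% in replicate 1, with the short-coding Hoxb9-202 as the rest. Hoxb3-202 had 65.3% in replicate 2 and 53.6% in replicate 1. Hoxd4-201 had 57.9% in replicate 2 and 48.8% in replicate 1. These 3 leading transcripts had the larger share in replicate 2, as did Hoxc4-201, with 67.1% in replicate 2 and 63.4% in replicate 1. Hoxc6-201 had 62.4% in replicate 2 and 63.5% in replicate 1, and Hoxb6-201 had 83.5% in replicate 2 and 84.9% in replicate 1, where the second transcript Hoxb6-202 also codes for a whole homeobox. Hoxc5-201 had 55.1% in replicate 2 and 100% in replicate 1.

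The clusters also held non-coding and antisense genes, and several were expressed at the level of the Hox genes around them. Of 50 other genes annotated within 5000 bases of the 4 clusters, 49 were in the tables, 19 reached 1 TPM in either library and 14 in both. Whether the authors counted by strand is not given in the sources used here, so reads of a gene and its antisense partner cannot be told apart. Hoxd3os1, antisense between Hoxd3 and Hoxd8 (chr2:74703248-74716130, minus strand), was highest, with 56.24 TPM in replicate 2 and 75.20 TPM in replicate 1, above Hoxd3, Hoxd4 and Hoxd8 in each library. Haglr, at the 3′ end of cluster D, had 5.72 TPM in replicate 2 and 4.37 TPM in replicate 1. Gm28230, which spans Hoxd3 and Hoxd4, had 1.11 TPM in replicate 2 and 1.98 TPM in replicate 1.

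In cluster B, Hoxb5os (chr11:96291024-96306910, minus strand) had 26.75 TPM in replicate 2 and 17.08 TPM in replicate 1. Hoxb3os was the same in both, with 12.65 TPM in replicate 2 and 12.64 TPM in replicate 1. Gm53, a non-coding gene in the gap between Hoxb9 and Hoxb13 (chr11:96251105-96264868, plus strand), had 16.61 TPM in replicate 2 and 32.71 TPM in replicate 1, a ratio of 0.453. The pseudogene Gm11539 beside it went the same way, with 5.14 TPM in replicate 2 and 13.10 TPM in replicate 1. Both lie beyond Hoxb9, between it and Hoxb13. On the TMM scale, used for the Gm53 ratio, the tested Hoxb ratios lay between 0.692 and 1.11. Spike-in scaling raises all of these alike, and puts the Hoxb ratios between 1.01 and 1.63. Gm11536 had 1.23 TPM in replicate 2 and 1.47 TPM in replicate 1.

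In cluster A, Hotairm1, an RNA known from myeloid cells, at the 3′ end of the cluster (chr6:52156902-52162119, plus strand), had 20.57 TPM in replicate 2 and 14.13 TPM in replicate 1. Hoxaas3 had 7.82 TPM in replicate 2 and 7.59 TPM in replicate 1, and Hoxaas2 4.54 TPM in replicate 2 and 5.48 TPM in replicate 1. Gm15050 had 2.51 TPM in replicate 2 and 2.18 TPM in replicate 1, and 5730596B20Rik 1.44 TPM in replicate 2 and 1.73 TPM in replicate 1. Gm28308, which overlaps Hoxa2 to Hoxa6 on their strand, had 0 counts in replicate 2 and 42 in replicate 1. In cluster C no gene other than the Hox genes reached 1 TPM with 10 counts on average. Gm27477, Gm27861, Gm27868, Mir196a-1 and Mir196a-2 passed 1 TPM in a library from at most 10 counts over effective lengths of at most 115 bases, so their TPM has little meaning.

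**Figure D5:**
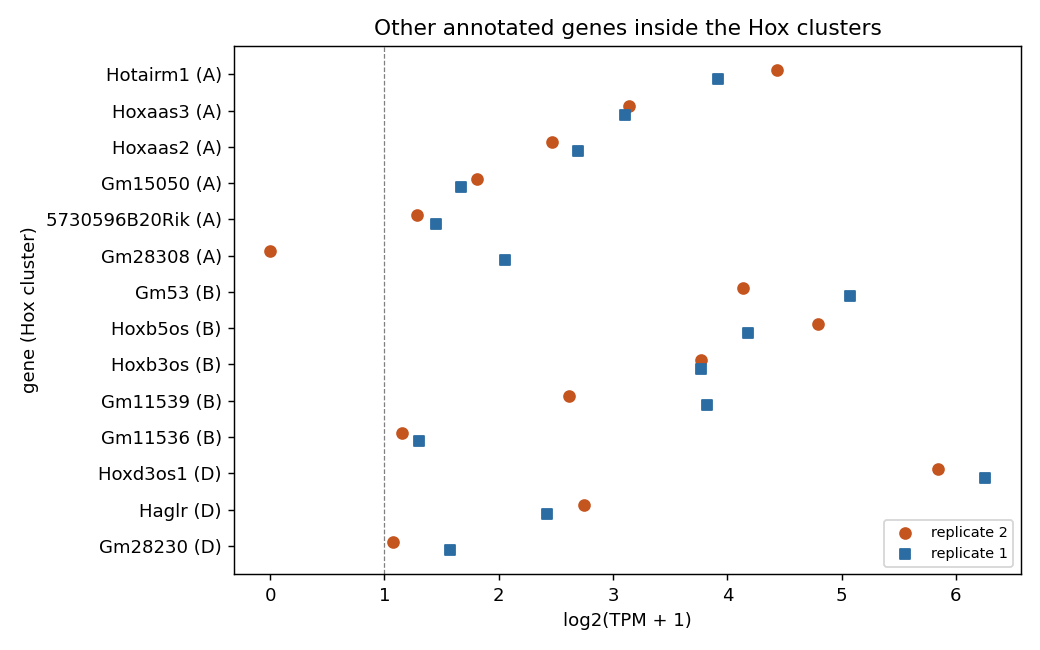
Level of the 14 other genes inside the Hox clusters that reach 1 TPM in either library with a mean count of at least 10, as log2(TPM + 1), with circles for replicate 2, squares for replicate 1, the cluster in brackets and a dashed line at 1 TPM. Hoxd3os1 lies highest and Gm28308 has reads in replicate 1 alone.

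Some Hox genes overlap each other, which bears on their counts. The spans of 11 members overlap another member's, and 4 share exon bases: Hoxd3 and Hoxd4 share 388 bases, and Hoxc5 and Hoxc10 share 166. Hoxc5 was called higher and Hoxc10 lower in replicate 2, so their ratios lay on opposite sides of 1.

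The clusters also hold the microRNA genes miR-10 and miR-196, which are known to pair with Hox messages. These libraries do not measure the mature forms, the host rows having at most 2 counts. The mature sequences (RefSeq, GRCm38.p6) are shown with the seed, bases 2 to 8, in capitals, because they fall into 2 seed families by which Hox messages can be sorted.
mmu-miR-10a-5p: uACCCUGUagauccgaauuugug
mmu-miR-10b-5p: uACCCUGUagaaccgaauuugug
mmu-miR-196a-5p: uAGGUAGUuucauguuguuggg
mmu-miR-196b-5p: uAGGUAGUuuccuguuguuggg
The reverse complement of the miR-10 seed, ACAGGGT, was present in the 3′ UTR of 4 of 39 Hox genes (10.3%, among them Hoxa3, Hoxb3 and Hoxd1), close to the 10.4% of 19377 genes. That of the miR-196 seed, ACTACCT, was present in 7 of 39 (17.9%, Hoxa4, Hoxa5, Hoxa9, Hoxb1, Hoxb6, Hoxb7 and Hoxc8), against 5.1% of all genes, with a median 3′ UTR of 878 bases for Hox genes and 751 bases for all. Each Hox gene was searched in the 3′ UTR of a single transcript. For Hoxa7 this was Hoxa7-203, which lacks a whole homeobox and has a 3′ UTR of 47 bases. For Hoxd11 the 3′ UTR searched had 30 bases. The Hoxa7 transcript with a whole homeobox was not searched, so whether its 3′ UTR holds a match was not tested. A match is a stretch of letters and says nothing of pairing in these cells.

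Hoxb8 is known in mouse embryos as a message cut by miR-196, through a site without an exact seed match. The window of each UTR that paired best with miR-196a was therefore found, and those of Hoxb8 and the 2 seed matches of its paralogue Hoxc8 are printed on the gene's strand, with the bases opposite the seed in capitals.
Hoxb8 window: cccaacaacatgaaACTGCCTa
Hoxc8 window 1: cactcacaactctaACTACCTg
Hoxc8 window 2: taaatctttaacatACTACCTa
In the Hoxb8 window 21 of 22 bases formed standard pairs and the other one, opposite position 5 of the microRNA, a wobble pair. The next best window among the searched UTRs of Hox genes (Hoxd8) had 15 standard pairs. The Hoxc8 windows had 12 pairs each. Hoxb8 itself ranked 7 among the Hox genes in replicate 2 and 4 in replicate 1.

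Upstream sequence was read for the genes with a RefSeq window, 24 windows of 22 Hox genes (GRCm38.p6, the 250 bases before the start). Their median GC content was 58.6% with 12.5 CpG, against 52.4% and 6 in all 32851 windows. The windows of Hoxa10 (chr6:52234940-52235189, minus strand, before 1 of its 2 RefSeq starts), Hoxd10 (chr2:74691641-74691890, plus strand) and Hoxd1 (chr2:74762730-74762979, plus strand) are shown because the first pair was lower in replicate 2 together and Hoxd1 had the largest ratio. Capitals mark the motifs searched on both strands.
Hoxa10 upstream window: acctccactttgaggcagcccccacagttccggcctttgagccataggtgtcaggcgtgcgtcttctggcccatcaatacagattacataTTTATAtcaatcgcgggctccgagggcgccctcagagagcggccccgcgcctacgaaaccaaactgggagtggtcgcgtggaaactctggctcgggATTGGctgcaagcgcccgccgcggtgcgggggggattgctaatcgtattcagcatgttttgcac
Hoxd10 upstream window: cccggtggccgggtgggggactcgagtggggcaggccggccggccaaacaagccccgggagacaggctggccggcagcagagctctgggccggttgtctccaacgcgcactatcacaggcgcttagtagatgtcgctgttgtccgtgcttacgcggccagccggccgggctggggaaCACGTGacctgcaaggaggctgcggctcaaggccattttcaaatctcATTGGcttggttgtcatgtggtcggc
Hoxd1 upstream window: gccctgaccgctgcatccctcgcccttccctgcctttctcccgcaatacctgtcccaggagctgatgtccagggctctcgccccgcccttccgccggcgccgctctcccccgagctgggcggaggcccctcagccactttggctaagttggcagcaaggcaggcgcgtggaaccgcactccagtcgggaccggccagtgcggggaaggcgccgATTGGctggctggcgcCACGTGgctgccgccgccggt
The TATA box TATAAA was in 4 of the 24 windows (16.7%, against 12.4% of all), among them the printed one of Hoxa10. The CCAAT box CCAAT was in 14 (58.3% against 33.8%), and all 3 printed windows hold it. The other Hoxa10 window (chr6:52240855-52241104, minus strand), not printed, held none of the motifs searched, with 51.6% GC and 7 CpG. The E-box CACGTG was in 4 (16.7% against 6.0%), including Hoxd10 and Hoxd1, which went in opposite directions between the libraries. The joint PBX and Hox site TGATTNAT was in 2 (8.3% against 2.8%), Hoxa2 and Hoxd11.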

How the data were processed

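The 2 libraries of neural tube total RNA were analysed from the deposited gene and transcript tables. The authors' expected counts (estimated reads), TPM, FPKM and percent of each gene's TPM per transcript are given per the file headers, and each library was quantified separately. The build was mm10 with GENCODE M4, per the submitters' processing notes. Aligner, quantifier and strandedness: not given in the sources used here. Deposited score columns supplied only effective lengths. Rows that name no gene (spike-ins, numeric identifiers) held 2.29% of counts in replicate 2 and 3.31% in replicate 1 and stayed out of library sizes.

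Symbols, coordinates and coding sequences came from GENCODE M21 (GRCm38) by identifier without version, which 42462 of 43346 gene rows matched. All 87 Hox transcripts matched, and 85 had the same length there. Expected counts were rounded. Ratios of replicate 2 to replicate 1 used TMM (edgeR 4.0.16, R 4.3.3) and exact Clopper-Pearson 95% intervals. Intervals, like the floor of 3 counts, hold no more than counting error, since amplified reads are not independent molecules. A ratio was called at 1.5-fold and a mean count of at least 10. Steps used a pseudocount of 1 TPM. Scripts were tested on simulated data. Other tools were DESeq2 1.42.0 (alternative size factors), pandas 2.3.3, NumPy 2.4.6 and SciPy 1.17.1 under Python 3.11.15, with matplotlib 3.10.9.

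The members and lists were chosen with earlier results of these data known. The rule named all 39 Hox genes, other genes within 5000 bases of a cluster at 1 TPM in either library, the partner and regulator lists, and leading transcripts under 90% in either library. Some genes that the rule or the lists name are not reported here, though counts and sums include them.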

Additional observations from a re-analysis of the deposited data

How the results depend on the processing

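Of 42 alternatives for the counts and sums, 34 stayed within 1.5 times of the count or within the SD of the sum, and 0 called ratios changed sign. Part of this was fixed in advance. With 2 libraries, each single-library sum lies within the SD. Detection and step counts from 1 library could not leave their range. The spike-in factor of 1.46 is below the 1.5-fold cut, so spike-ins could not turn a called ratio. The mean sum of cluster A was 299.4 TPM with posterior means and 329.6 TPM when TPM was rescaled over gene rows alone, and that of cluster B was 511.8 TPM on that rescaled TPM, each beyond the SD. Spike-in scaling, which raises every ratio alike, gave 13 Hox genes at least 1.5-fold higher and 0 lower in replicate 2. Without a count filter 7 were lower, the additions having 5 counts or fewer in any library. At 2-fold, 2 were higher (Hoxc8, Hoxd1) and 1 lower (Hoxc10). With each library alone, between 27 and 28 Hox genes reached 1 TPM, cluster A summed to between 303.4 and 310.9 TPM, B to between 459.8 and 493.7, C to between 187.9 and 249.3 and D to between 98.43 and 134.7, and between 32 and 33 steps had a sign. Of the 120 single ratios recomputed under other scales, 13 crossed the threshold, 11 of them with spike-ins. Depth limits groups 11 to 13, Hoxb1 and Hoxd1, whose counts are low in at least 1 library. No paired analysis was possible because there is 1 group and no second group to pair with.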
